A study of Mus musculus with 24 samples.

Results

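Genes for making asparagine, serine and one-carbon units, and stress genes controlled by the transcription factor ATF4, were measured in the hearts of mice that overexpress AC5 (adenylyl cyclase type 5, an enzyme that makes cyclic AMP) or 1 of 2 forms of the beta1-adrenergic receptor. The set holds 10 genes: Asns, Phgdh, Psph, Mthfd2, Aldh18a1, Atf4, Trib3, Ddit3, Fgf21 and Nupr1. They are read by 24 of the 45037 probe sets tested, namely every probe set annotated to exactly 1 of these symbols. A further 2 probe sets that carry a member's symbol together with another were left out. The set was chosen because Asns, Phgdh and Mthfd2 rose in AC5 hearts in these same data. The AC5 values are therefore a description, with no test and no call for the members. The stated choice used no ARG or GLY heart, but both are compared with the same non-transgenic hearts that it used.

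Total RNA of hearts from 90-day-old mice was read on Affymetrix arrays, with 6 biological replicates per genotype. NTG hearts came from non-transgenic mice. AC5, GLY and ARG hearts carried a human cDNA for AC5, beta1-Gly389 or beta1-Arg389, placed under the alpha-myosin heavy chain promoter so that cardiac myocytes express it. No drug or diet is named in the labels, and neither is the number of transgenic lines or founders. The study asks how the Arg389 and Gly389 forms of the receptor differ in cardiac gene regulation. The deposited values are ratios that centre near 1 in the NTG hearts, and the medians of all 24 arrays lay between 0.967 and 1.06. A ratio shows how far a probe set stands from its control level and holds no signal level, so genes cannot be ranked by abundance and no marker can be called absent. Changes are differences of mean log2 ratios ± SE of a fit over all 24 arrays, where 1 unit is a doubling. A probe set "rose" or "fell" where limma gave an adjusted p under 0.05. In whole hearts, fewer cells of a type and less RNA per cell cannot be told apart. The 4 probe sets for mouse Adcy5 differed from NTG by -0.13 to 0.41 in AC5 hearts, with the smallest adjusted p at 0.0813. Whether they can read the human transgene was not tested.

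Asparagine synthetase (Asns) makes asparagine from aspartate and glutamine. Phgdh and Psph catalyse the first and last steps of the pathway that makes serine from a glycolytic intermediate, and Mthfd2 is a mitochondrial enzyme that processes the one-carbon units serine gives to folate. Aldh18a1 starts the synthesis of proline and ornithine from glutamate. When amino acids run short, unfolded protein gathers in the endoplasmic reticulum or mitochondria are disturbed, kinases phosphorylate eIF2, most translation slows and the Atf4 mRNA is translated more. ATF4 then raises genes such as these by binding, with C/EBP-family partners, to composite sites called C/EBP-ATF response elements (CARE). Since ATF4 is controlled largely at translation, its own mRNA is a poor guide to its activity. Ddit3 (CHOP), Trib3 and Nupr1 are regulators induced in the same response, and Fgf21 is a secreted hormone that ATF4 also raises.

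The upstream sequences of 5 members are shown. These genes either moved most in AC5 or hold the CARE core, TGATGNAA on either strand, before the gene's start. All 10 members were matched to RefSeq promoter windows of 300 bases on build GRCm38.p6, from 250 bases before the start to 50 after it. Each stretch below has 100 bases, reads 5′ to 3′ on the gene's strand, which is the minus strand for all 5, and gives the CARE core in capitals. The stretch of Asns is chr6:7693210-7693309, that of Nupr1 is chr7:126625521-126625620, that of Fgf21 is chr7:45615571-45615670, that of Mthfd2 is chr6:83317605-83317704 and that of Phgdh is chr3:98339970-98340069. Those of Asns, Nupr1, Fgf21 and Phgdh lie upstream of the gene's whole RefSeq span. That of Mthfd2 lies upstream of the start its window was built on, but inside the gene's span, chr6:83305704-83326011. The Mthfd2 window thus does not cover the outer end of that span.
Asns: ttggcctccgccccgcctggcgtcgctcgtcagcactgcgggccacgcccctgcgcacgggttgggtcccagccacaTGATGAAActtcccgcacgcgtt
Nupr1: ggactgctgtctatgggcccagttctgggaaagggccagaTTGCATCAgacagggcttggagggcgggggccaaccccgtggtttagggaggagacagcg
Fgf21: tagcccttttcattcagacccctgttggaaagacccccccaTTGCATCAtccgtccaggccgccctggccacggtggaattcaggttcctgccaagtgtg
Mthfd2: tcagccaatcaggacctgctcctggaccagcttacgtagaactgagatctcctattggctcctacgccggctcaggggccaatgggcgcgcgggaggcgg
Phgdh: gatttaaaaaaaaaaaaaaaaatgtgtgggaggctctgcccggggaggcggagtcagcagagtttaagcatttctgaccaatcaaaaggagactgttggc

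The CARE core was found in 4 of the 10 member windows, against 1304 of 32851 RefSeq windows (3.97%). In Asns it starts 23 bases before the gene's start and reads TGATGAAA on the gene's own strand. In Nupr1 and Fgf21 it reads TTGCATCA, the core on the opposite strand, starting 110 and 139 bases before the start. In Trib3 it reads TTACATCA, again on the opposite strand, from base 15 after the start. Mthfd2, Phgdh, Psph, Aldh18a1, Atf4 and Ddit3 held no such run in this window. The cyclic AMP response element TGACGTCA was in 0 of the 10 windows (1.79% of all), and so was the ER stress response element ERSE (CCAAT, any 9 bases, then CCACG; 0.119% of all). Both strands were searched, and no member window held more than 1 of these motifs. A run of letters is a description of the window, and binding was not measured here.

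Asns, Phgdh, Mthfd2, Aldh18a1, Trib3 and Nupr1 rose in ARG hearts, while Psph, Atf4, Ddit3 and Fgf21 were not called there. In ARG against NTG, 15 of the 24 member probe sets rose and 0 fell, where 4.04% of all probe sets rose and 5.63% fell. All 6 ARG hearts lay above all 6 NTG hearts for 13 of the 24, against 2.32% of all probe sets. The median change of the 24 was 0.43, beside 0.004 over all probe sets. In GLY against NTG, 1 member probe set rose, of Aldh18a1, and 1 fell, of Ddit3, where 1.55% of all probe sets rose and 3.53% fell. All GLY hearts lay above all NTG hearts for 4 of the 24 (1.07% of all), and the median change was 0.20, beside 0.03. In ARG against GLY, which uses no heart of the choice, 2 member probe sets rose, both of Nupr1, and 0 fell, where 0.793% of all rose and 0.713% fell. All ARG hearts lay above all GLY hearts for 4 of the 24 (0.262% of all), in Trib3, Ddit3 and Nupr1, and the median difference was 0.40, beside -0.02. ARG and GLY share their NTG hearts, so the 2 comparisons with NTG are not independent of each other.

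**Figure D1:**
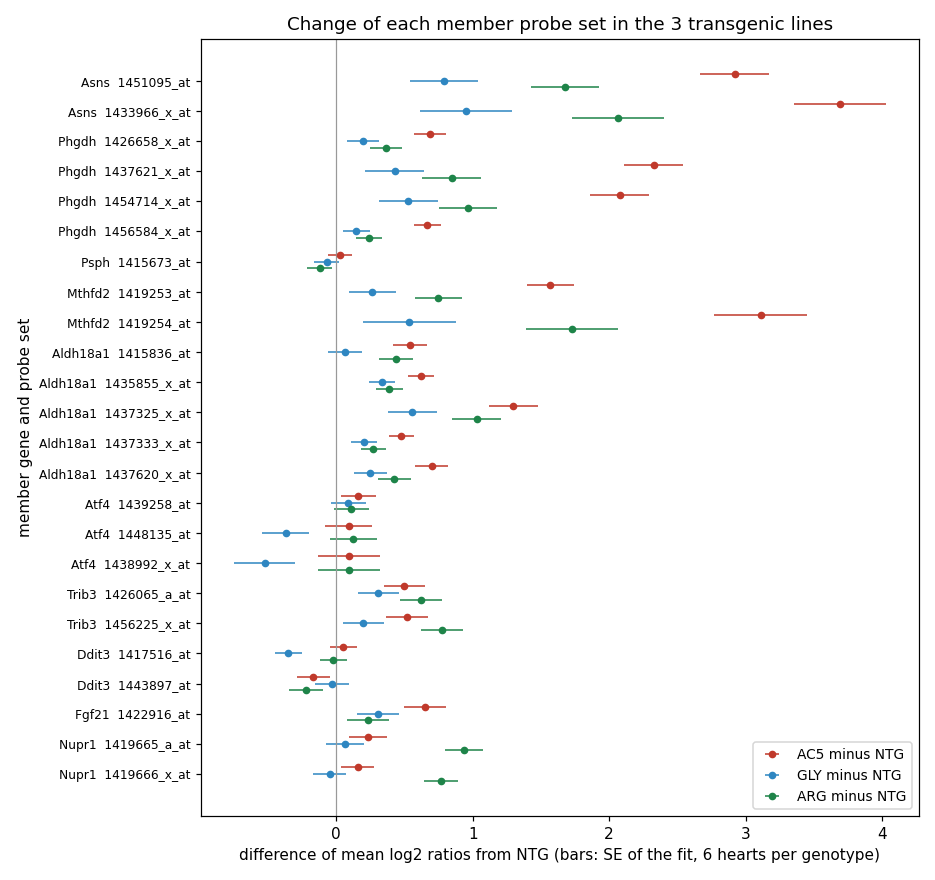
Differences from NTG in mean log2 ratio (x axis) for the 24 member probe sets (y axis) in AC5 (red), GLY (blue) and ARG (green), with bars for the SE of the fit over 6 hearts per genotype. AC5 differences reach 3.69 for Asns, ARG differences reach 2.06, and the Nupr1 differences are largest in ARG, at 0.93 and 0.77.

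AC5 hearts differed from NTG by a median of 0.58 over the 24 member probe sets, beside -0.001 over all. In this comparison, on which the set was chosen, all AC5 hearts lay above all NTG hearts for 10 of the 24 (0.488% of all probe sets), in Asns, Phgdh, Mthfd2, Aldh18a1 and Fgf21. Nothing is read from that count. Few probe sets were called in AC5 at all, with 0.0688% rising and 0.0733% falling. The choice shows in the order of the differences: of all probe sets, Asns held ranks 1 and 3, Mthfd2 rank 2 and Phgdh rank 4. The ratio of Asns 1433966_x_at was the highest of all probe sets in 5 of the 6 AC5 hearts.

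Asns stood lowest in NTG, higher in GLY, higher again in ARG and highest in AC5. On probe set 1451095_at the ratios, given as the lowest, median and highest of 6 hearts, were 0.703, 1.03 and 1.13 in NTG and 1.26, 1.58 and 2.43 in GLY. They were 2.23, 3.04 and 4.73 in ARG and 2.69, 7.84 and 13.03 in AC5. No GLY or ARG heart overlapped the NTG hearts on this probe set, whereas GLY overlapped ARG and ARG overlapped AC5. Asns rose 3.19-fold in ARG against NTG, a change of 1.67 ± 0.25 with an adjusted p of 4.19e-05. The GLY change was 0.79 ± 0.25 and was not called (adjusted p = 0.0632), though it was without GLY replicate 2, with only both groups fitted and under quantile normalization. The difference of ARG from GLY, 0.88 ± 0.25, was not called either (adjusted p = 0.073), with a 95% interval from 0.36 to 1.40. It was called without GLY replicate 6 or without ARG replicate 1.

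The other Asns probe set, 1433966_x_at, gave the same order with larger values. Its suffix _x_at marks probe sets in which some probes may also match other sequences. The ratios were 0.856, 0.977 and 1.24 in NTG, 1.24, 1.62 and 4.37 in GLY, 2.58, 4.10 and 7.26 in ARG, and 3.87, 14.2 and 24.03 in AC5. Each ARG heart stood above each NTG heart, and the lowest GLY heart lay within the NTG range. The change was 2.06 ± 0.34 in ARG (adjusted p = 0.000116) and 0.95 ± 0.34 in GLY, which was not called (adjusted p = 0.101). In AC5 the differences from NTG were 2.92 on the first probe set and 3.69 on the second.

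**Figure D2:**
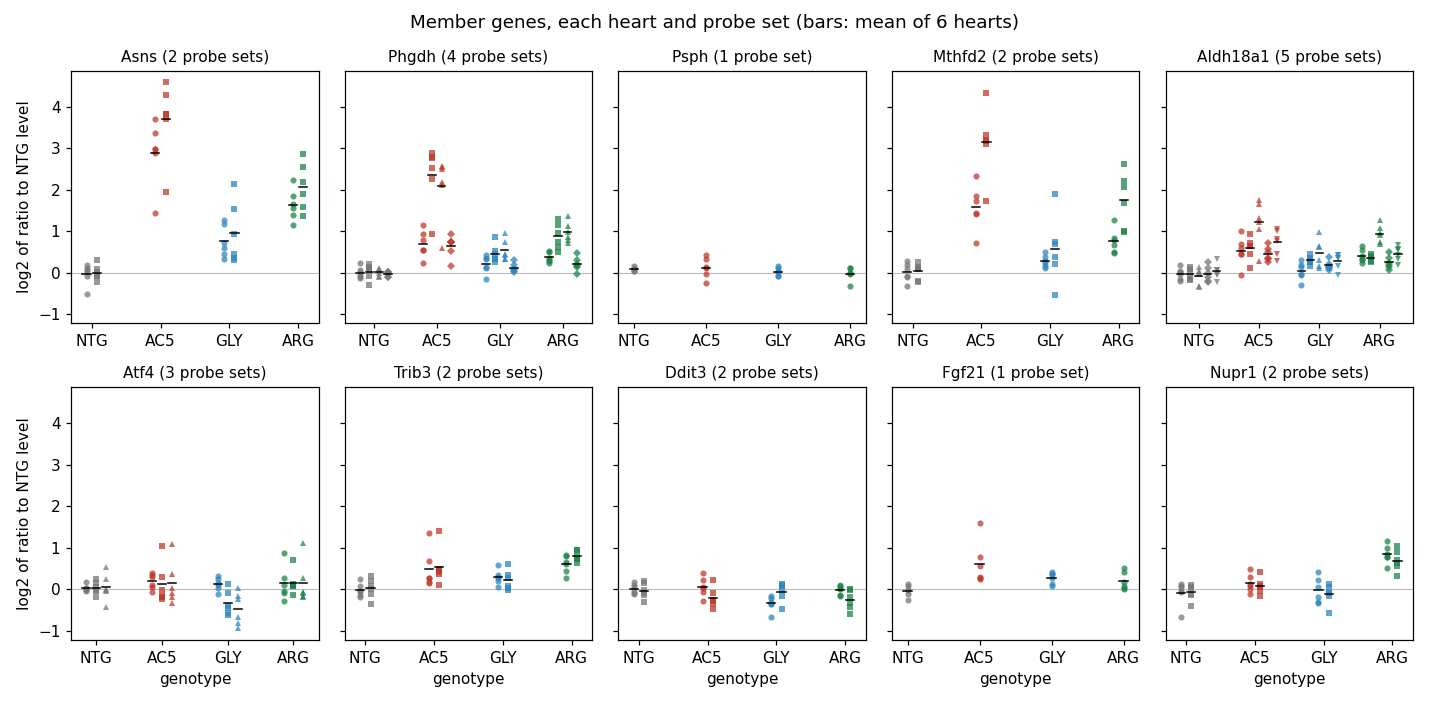
The log2 ratio to the NTG level (y axis) of each heart for the 10 member genes in the 4 genotypes (x axis), with 1 symbol shape per probe set and black bars for the mean of 6 hearts. Asns, Phgdh and Mthfd2 are highest in AC5 and next highest in ARG, Nupr1 is highest in ARG, and Psph stays within -0.32 and 0.43 in all 24 hearts.

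Phgdh, the entry enzyme of serine synthesis, rose in ARG on 3 of its 4 probe sets, all of which carry the suffix _x_at. On 1454714_x_at the ratios were 0.937, 1.01 and 1.07 in NTG and 1.25, 1.36 and 1.93 in GLY. They were 1.65, 1.90 and 2.56 in ARG and 1.51, 5.09 and 5.91 in AC5. All GLY, ARG and AC5 hearts lay above the NTG hearts here, and 1 AC5 heart lay below every ARG heart. The ARG change was 0.97 ± 0.21 (adjusted p = 0.00325), and the GLY change of 0.53 ± 0.21 was not called (adjusted p = 0.165). On 1437621_x_at the ARG change was 0.85 ± 0.22 (adjusted p = 0.0103). On 1426658_x_at it was 0.36 ± 0.12 (adjusted p = 0.0482), a call lost under 16 of 22 alternative settings, 10 of which left out a single heart. On 1456584_x_at it was 0.24 ± 0.10 and was not called (adjusted p = 0.138). The AC5 differences from NTG ran from 0.67 to 2.33, so the 4 probe sets also differed in size among themselves.

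Psph, which removes the phosphate in the last step of serine synthesis, was not called in any comparison tested. Its ratios were 1.03, 1.07 and 1.13 in NTG, 0.947, 1.02 and 1.12 in GLY, 0.801, 1.00 and 1.09 in ARG, and 0.844, 1.10 and 1.34 in AC5. The 4 genotypes overlapped throughout. The ARG change was -0.12 ± 0.09 (adjusted p = 0.534), with a 95% interval from -0.31 to 0.07, and the AC5 difference was 0.03.

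Mthfd2 rose in ARG on both probe sets. On 1419254_at the ratios were 0.858, 1.08 and 1.20 in NTG and 0.695, 1.45 and 3.74 in GLY. They were 1.99, 3.68 and 6.12 in ARG and 3.32, 9.14 and 19.98 in AC5. ARG and AC5 hearts lay above all NTG hearts, while the GLY hearts spread from below the NTG range to well within the ARG range. The ARG change was 1.73 ± 0.34, or 3.32-fold (adjusted p = 0.000968). The GLY change of 0.54 ± 0.34 was not called (adjusted p = 0.425), and neither was the difference of ARG from GLY, 1.19 ± 0.34 (adjusted p = 0.0749), which was called without GLY replicate 6, ARG replicate 1 or ARG replicate 3. On 1419253_at the ARG change was 0.75 ± 0.17 (adjusted p = 0.00479), and the ARG hearts again lay above the NTG hearts. The AC5 differences were 3.11 and 1.57.

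Aldh18a1, the entry enzyme of proline synthesis, rose in ARG on 4 of 5 probe sets, by 0.39 to 1.03. On 1437325_x_at, the probe set with the largest change, the ratios were 0.784, 0.994 and 1.10 in NTG and 1.09, 1.38 and 1.97 in GLY. They were 1.61, 1.91 and 2.43 in ARG and 1.22, 2.40 and 3.38 in AC5. The ARG hearts lay above all NTG hearts, and the lowest GLY heart lay just inside the NTG range. The ARG change was 1.03 ± 0.18 (adjusted p = 0.000256), and the GLY change of 0.56 ± 0.18 was not called (adjusted p = 0.0687). In GLY the gene rose on 1435855_x_at alone, by 0.33 ± 0.10 (adjusted p = 0.0395), and the call was lost under 15 of 22 alternative settings, among them each GLY heart but replicate 6 left out. The only Aldh18a1 probe set without the suffix _x_at, 1415836_at, changed by 0.44 ± 0.13 in ARG (adjusted p = 0.0233) and by 0.06 ± 0.13 in GLY (adjusted p = 0.85). The ARG call there was lost without NTG replicate 2 or 3 or ARG replicate 4 or 5, and that on 1437620_x_at without NTG replicate 6 or ARG replicate 3. The AC5 differences ran from 0.48 to 1.30.

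With all hearts fitted, the Atf4 transcript was not called in any comparison tested, on any of 3 probe sets. On 1448135_at the ratios were 0.880, 1.01 and 1.18 in NTG, 0.646, 0.744 and 1.09 in GLY, 0.905, 1.07 and 1.62 in ARG, and 0.851, 0.941 and 2.07 in AC5. All ranges overlapped, and the highest ARG and AC5 values each came from 1 heart. The ARG change was 0.13 ± 0.17 (adjusted p = 0.783) and the GLY change was -0.37 ± 0.17 (adjusted p = 0.234). Within replicates 1 to 3 Atf4 1448135_at was called, at -0.60 in GLY against NTG (adjusted p = 0.00961) and 0.55 in ARG against GLY (adjusted p = 0.0482), and within replicates 4 to 6 it was called in neither. With all hearts fitted, the ARG and GLY changes from NTG on 1438992_x_at were 0.09 ± 0.23 and -0.53 ± 0.23 (adjusted p = 0.894 and 0.194). On 1439258_at they were 0.11 ± 0.13 and 0.09 ± 0.13 (adjusted p = 0.739 and 0.783). The AC5 differences were 0.09, 0.09 and 0.16.

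Trib3, a pseudokinase induced by ATF4 and CHOP, rose in ARG on both probe sets, by 0.62 ± 0.15 and 0.77 ± 0.15 (adjusted p = 0.00719 and 0.000967). On 1456225_x_at the ratios were 0.782, 1.03 and 1.26 in NTG and 0.983, 1.12 and 1.535 in GLY. They were 1.543, 1.70 and 1.93 in ARG and 1.08, 1.36 and 2.65 in AC5. The ARG hearts lay above every NTG and every GLY heart, though the highest GLY heart and the lowest ARG heart were close. The GLY change of 0.20 ± 0.15 was not called (adjusted p = 0.528). The difference of ARG from GLY, 0.58 ± 0.15, had an adjusted p of 0.0512 and was called under 8 of 22 alternative settings, among them GLY replicate 3 or 6 left out and the replicate number as a block (0.58, adjusted p = 0.0448). The AC5 differences were 0.50 and 0.52, and fell to 0.32 and 0.34 without AC5 replicate 5, which held the highest value on both probe sets.

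Ddit3, which encodes CHOP, was lower in GLY on 1 of its 2 probe sets and was not called in ARG. On 1417516_at the ratios were 0.920, 1.00 and 1.13 in NTG, 0.6248, 0.7995 and 0.8955 in GLY, 0.8965, 1.01 and 1.08 in ARG, and 0.820, 1.03 and 1.32 in AC5. Every GLY heart lay below every NTG and every ARG heart, though the highest GLY heart and the lowest ARG heart were close. The difference of ARG from GLY, 0.33 ± 0.10, was not called (adjusted p = 0.0954), and was called under 1 of 23 alternative settings. The gene fell by 0.35 ± 0.10 in GLY (adjusted p = 0.0351), a call lost under 11 of 23 alternative settings, among them NTG replicate 2, 3 or 6 or GLY replicate 1, 2, 4 or 5 left out. The other probe set, 1443897_at, changed by -0.03 ± 0.12 in GLY (adjusted p = 0.933), so the 2 disagree. In ARG the changes were -0.02 ± 0.10 and -0.22 ± 0.12 (adjusted p = 0.952 and 0.331), and the AC5 differences were 0.05 and -0.17.

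Nupr1, a small stress-induced chromatin protein, was the 1 member that rose in ARG against GLY. On 1419665_a_at the ratios were 0.628, 1.01 and 1.10 in NTG, 0.793, 0.957 and 1.34 in GLY, 1.43, 1.76 and 2.23 in ARG, and 0.923, 1.08 and 1.41 in AC5. All ARG hearts lay above all hearts of the other genotypes, and NTG, GLY and AC5 overlapped. Against NTG it rose by 0.93 ± 0.14 (adjusted p = 4.37e-05), and against GLY by 0.87 ± 0.14, or 1.83-fold (adjusted p = 0.00114). On 1419666_x_at it rose by 0.77 ± 0.12 and 0.82 ± 0.12 (adjusted p = 9.33e-05 and 0.000707). The GLY changes were 0.07 and -0.05 (adjusted p = 0.861 and 0.885), and the AC5 differences were 0.23 and 0.16. The call of ARG against GLY on 1419665_a_at was lost under quantile normalization and within replicates 4 to 6.

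Fgf21, read by 1 probe set, was not called in ARG or GLY. The ratios were 0.836, 0.986 and 1.09 in NTG, 1.06, 1.25 and 1.34 in GLY, 0.998, 1.10 and 1.42 in ARG, and 1.18, 1.34 and 3.00 in AC5. The AC5 hearts lay above the NTG hearts, and GLY and ARG overlapped them. The change was 0.23 ± 0.16 in ARG (adjusted p = 0.466) and 0.30 ± 0.16 in GLY (adjusted p = 0.294). The AC5 difference was 0.65, and 0.46 without AC5 replicate 5.

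Hearts of 1 genotype differed widely in how strongly the members moved. AC5 replicate 4 was the lowest AC5 heart on 15 of the 24 member probe sets and AC5 replicate 5 the highest on 18. In replicate 4 the Asns ratios were 2.69 and 3.87, against 7.38 and 13.1 in the next lowest AC5 heart. Without it the AC5 differences of Asns were 3.21 and 4.04 in place of 2.92 and 3.69. ARG replicate 1 was the lowest ARG heart on 12 probe sets and ARG replicate 4 the highest on 12, while GLY replicates 3 and 6 were the highest GLY hearts on 11 and 8. The SD of log2 ratios for Asns 1451095_at was 0.25 for NTG, 0.39 for GLY, 0.38 for ARG and 0.78 for AC5, and the fit shares 1 spread among them. Its SE is thus wide for NTG and narrow for AC5.

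**Figure D3:**
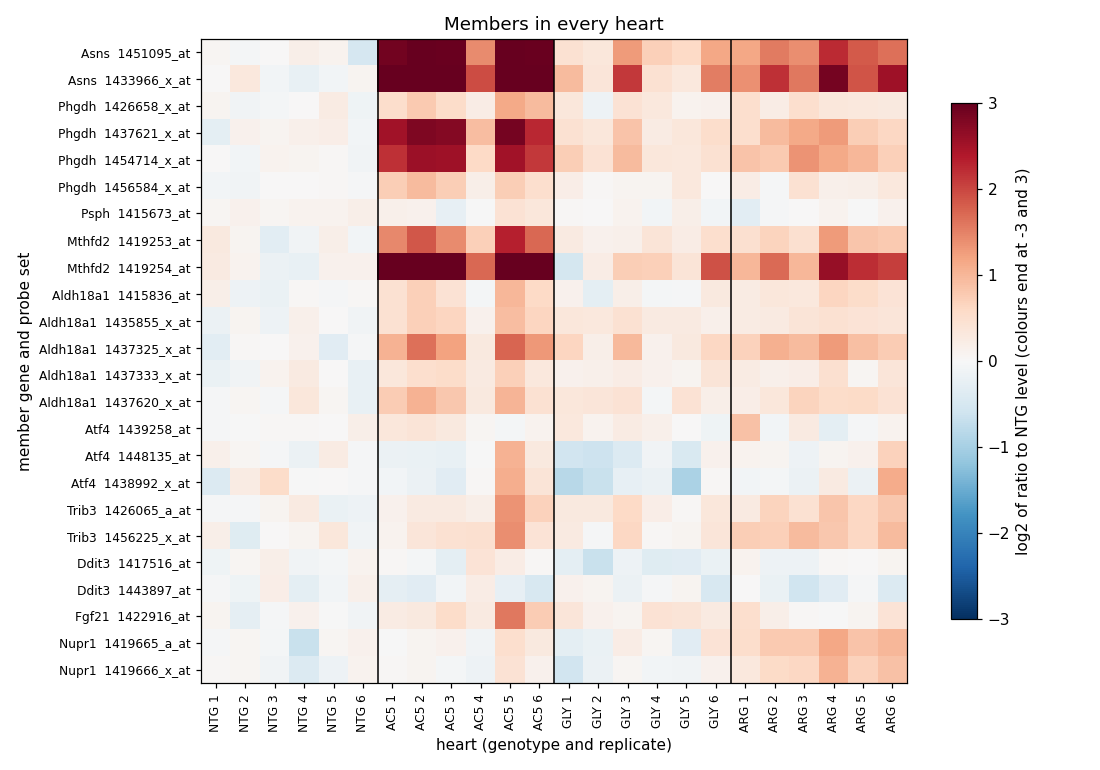
Log2 ratios to the NTG level (colour, ending at -3 and 3) of the 24 member probe sets (rows) in each of 24 hearts (columns, grouped by genotype and replicate). AC5 replicate 4 is pale where the other AC5 hearts are dark for Asns, Phgdh and Mthfd2, and AC5 replicate 5 is the heart with the darkest Trib3 and Fgf21 cells.

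The values were also compared within replicates 1 to 3 and within replicates 4 to 6, sets that the labels do not name as batches and that were known from earlier results of these data. With each array centred on its median, the mean log2 ratios of the 2 sets differed by a median absolute 0.045 over all probe sets for NTG, against 0.10 for AC5, 0.13 for ARG and 0.16 for GLY. The NTG sets thus lay closest to each other, and whether each set was divided by its own NTG level is stated in no source used here. If it was, a ratio refers to the controls of its own set, and the spread of the 6 NTG hearts leaves out differences between sets. With the set as a term in the fit, the member calls numbered 15 for ARG and 2 for GLY, each against NTG, and 3 for ARG against GLY. The ARG changes were positive in both sets for all probe sets of Asns, Phgdh, Mthfd2, Aldh18a1, Trib3, Nupr1 and Fgf21. For Asns 1451095_at the ARG change was 1.36 in the first set and 1.99 in the second, for Mthfd2 1419254_at 1.17 and 2.29, and for Nupr1 1419665_a_at 0.71 and 1.16. With 3 hearts per group, 8 and 6 member probe sets were called in ARG against NTG in place of 15. For Atf4 1438992_x_at the ARG change was -0.23 in the first set and 0.42 in the second, so it had no stable direction.

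Other genes were counted on 1 probe set each, and their shares are to be read beside those of all probe sets. Those were 4.04% and 5.63% for rises and falls in ARG, 1.55% and 3.53% in GLY and 0.793% and 0.713% in ARG against GLY. Of 6 other serine and glycine genes measured, 0 rose and 1 fell in ARG: Gcsh, a carrier protein of glycine breakdown, fell by 0.38 ± 0.08 (adjusted p = 0.00284), and in GLY by 0.28 ± 0.08 (adjusted p = 0.0439). Among probe sets not counted, 2 of Shmt2 and 1 of Shmt1, enzymes that convert serine to glycine, fell in ARG. Psat1, the enzyme between Phgdh and Psph, changed by 0.19 ± 0.21 in ARG (adjusted p = 0.725) and differed by 0.60 in AC5. Of 15 other folate genes, 0 rose in ARG or GLY. Mtr, methionine synthase, fell by 0.37 ± 0.12 in ARG (adjusted p = 0.0399), on 1 of its 2 probe sets. Aldh1l2, the mitochondrial enzyme that oxidises formyl-folate, fell by 0.51 ± 0.13 in GLY (adjusted p = 0.0249) and differed by 0.54 in AC5. The median change of the 15 was -0.05 in ARG and -0.002 in GLY.

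Of 15 other genes of asparagine, proline, glutamate and alanine metabolism, 0 rose and 6 fell in ARG (Asrgl1, Prodh, Aldh4a1, Oat, Gpt and Bcat2), with a median change of -0.28. Asrgl1 is an asparaginase, and Oat, Gpt and Bcat2 are aminotransferases. Aldh4a1, which breaks down proline to glutamate, fell by 1.00 ± 0.11 in ARG (adjusted p = 5.75e-07) and by 0.74 ± 0.11 in GLY (adjusted p = 0.000253). In GLY 3 of the 15 fell, namely Aldh4a1, Oat and Bcat2, and the median change was -0.19. In AC5 the median difference was -0.06, and that of Aldh4a1 was -0.45.

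Among 27 other genes known as ATF4 targets, 5 rose and 3 fell in ARG, 0 rose and 1 fell in GLY, and the medians were 0.08 and 0.03. Chac1, which degrades glutathione, rose by 1.34 ± 0.21 in ARG (adjusted p = 6.99e-05) and by 1.10 ± 0.21 in ARG against GLY (adjusted p = 0.00513). The other 4 that rose in ARG encode amino acid transporters or their subunits: Slc7a5, Slc3a2, Slc38a2 and Slc6a9. Ddit4, an inhibitor of mTORC1, fell by 0.90 ± 0.18 in ARG (adjusted p = 0.00142), and Stc2 and Vldlr also fell. In GLY Vldlr, a lipoprotein receptor, fell by 0.54 ± 0.14 (adjusted p = 0.0252), and 2 of its 6 probe sets fell there. In AC5 the largest difference of these 27 was that of Slc7a5, at 1.33. With the members Trib3, Nupr1 and Fgf21 included, 7 of 30 rose in ARG, and 4 did under quantile normalization. The calls over all probe sets in ARG against NTG then numbered 2400 in place of 4355.

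Of 12 bZIP factors related to ATF4, 3 rose and 1 fell in ARG. Nfil3 rose by 1.49 ± 0.15 (adjusted p = 2.08e-07) and Jun fell by 0.60 ± 0.10 (adjusted p = 0.000103). Atf3 and Atf5 rose too, and Atf5, itself an ATF4 target, differed by 1.39 in AC5. In GLY Nfil3 rose by 0.62 ± 0.15 (adjusted p = 0.0162), and it rose by 0.87 ± 0.15 in ARG against GLY (adjusted p = 0.00246), where 2 rose and 1 fell. Fos had the lowest AC5 difference of the list, at -1.25. Of 19 eIF2 kinases and regulators of ATF4, 1 rose and 1 fell in ARG, near the share of all probe sets. They were Egln3, a prolyl hydroxylase, by 0.52 ± 0.13 (adjusted p = 0.00852), and Oma1, a mitochondrial protease, by -0.40 ± 0.07 (adjusted p = 0.00051). Both were called the same way in GLY, at 0.49 ± 0.13 and -0.25 ± 0.07 (adjusted p = 0.024 and 0.0433), where Eif2b5 rose too. Nfe2l2 rose by 0.38 ± 0.09 in ARG against GLY (adjusted p = 0.0289), on 1 of its 2 probe sets. The 4 eIF2 kinases were not called on the probe sets counted.

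Of 19 cytosolic aminoacyl-tRNA synthetases, 2 rose in ARG, Gars1 and Sars1, and the seryl enzyme Sars1 rose by 0.63 ± 0.14 (adjusted p = 0.00406). In GLY 1 fell, the leucyl enzyme Lars1, by 0.46 ± 0.08 (adjusted p = 0.00156). Of 20 chaperones of the endoplasmic reticulum and other ATF6 or XBP1 targets, 6 rose in ARG (Sdf2l1, Creld2, Manf, Pdia4, Calr and Edem1) and 0 were called in GLY. Sdf2l1, a resident of that compartment, rose by 1.42 ± 0.20 (adjusted p = 1.97e-05). The medians of the 20 were 0.27 in ARG, -0.03 in GLY and 0.24 in AC5, where Manf had the largest difference, 0.91. In ARG against GLY 5 of the 20 rose, where 0.793% of all probe sets did, and the median was 0.43. Under quantile normalization 0 of the 20 rose, and the calls over all probe sets numbered 58 in place of 678. Of 14 genes of the mitochondrial stress response, 0 rose and 5 fell in ARG, and 0 rose and 5 fell in GLY. Clpx, a subunit of a mitochondrial protease, fell by 0.90 ± 0.15 in ARG (adjusted p = 0.000188), on 1 of its 2 probe sets. The chaperone Hspd1 fell by 0.93 ± 0.15 in GLY (adjusted p = 0.000594). Of 7 FGF receptors and related ligands, 0 were called in ARG, GLY or ARG against GLY.

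**Figure D4:**
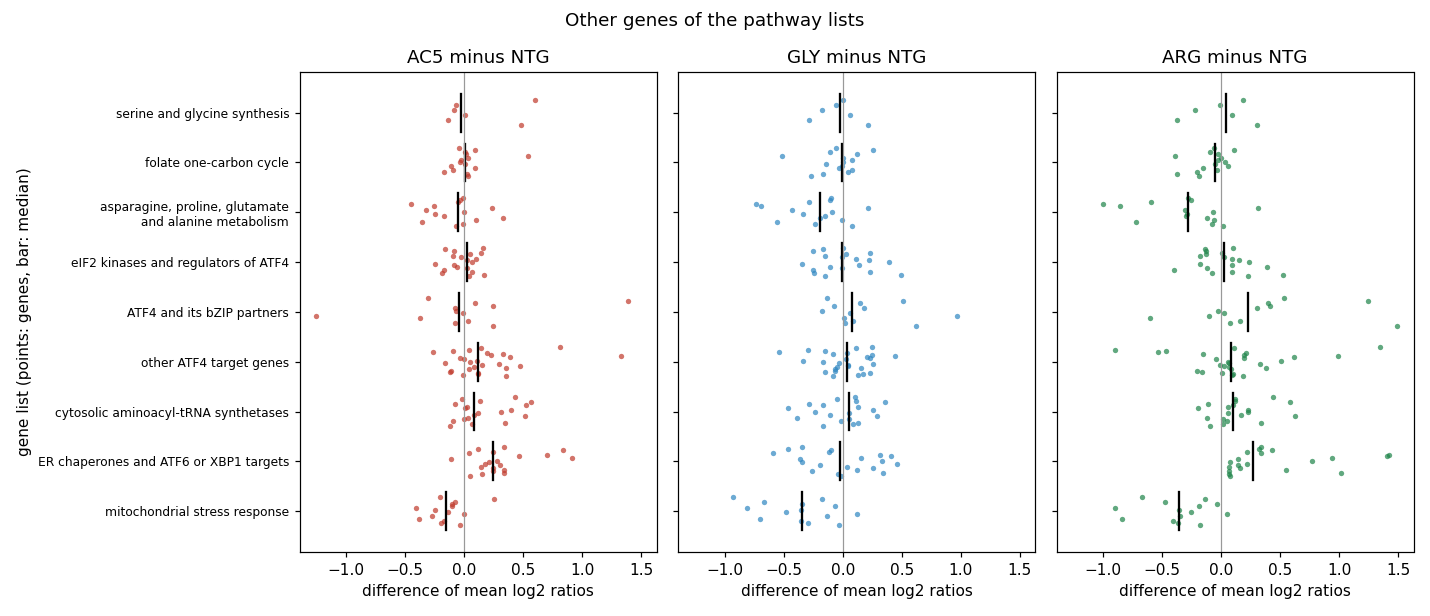
Differences from NTG in mean log2 ratio (x axis) of the genes of 9 lists, members left out (1 point per gene, black bar for the list's median), in AC5, GLY and ARG. The median of the mitochondrial list is -0.35 in both ARG and GLY, and that of the chaperone list is 0.27 in ARG, 0.24 in AC5 and -0.03 in GLY.

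Markers of other cell types moved in the same hearts. Of 16 macrophage markers 10 rose and 0 fell in ARG against NTG, with a median change of 0.68. Ms4a7 rose most, by 1.74 ± 0.18 (adjusted p = 2.08e-07), and on 1 of its 2 probe sets. Averaged over the 16, the log2 ratio of a heart lay between 0.26 and 0.91 in ARG, -0.05 and 0.07 in NTG, -0.26 and 0.51 in GLY and -0.15 and 0.16 in AC5. In ARG against GLY 6 of the 16 rose, where 0.793% of all probe sets did. Under quantile normalization 2 of the 16 rose, and the calls over all probe sets numbered 58 in place of 678. Of 12 fibroblast markers 7 rose and 1 fell in ARG, and their average per heart lay between 0.002 and 0.80 there, -0.21 and 0.005 in NTG, -0.44 and 0.51 in GLY and -0.47 and -0.26 in AC5. Every AC5 heart thus lay below every NTG heart on that average. Of 14 endothelial markers 4 fell in ARG and 2 in GLY. Of 12 cardiomyocyte markers 1 rose and 2 fell in ARG, and 1 fell in GLY. Of 7 adipocyte markers 3 fell in ARG and 2 in GLY, of 10 skeletal muscle markers 1 fell in each, and 0 of 4 red blood cell markers were called in either. The part of these cells in the ARG rises or the AC5 differences of the members was not tested. In AC5 0 of the 16 macrophage markers and 0 of the 12 fibroblast markers were called one by one by limma. Only 0.0688% of all probe sets rose there and 0.0733% fell, so nothing is read from these counts.

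The genes whose values followed Asns most closely over the 24 hearts included its fellow members. Of 18192 other genes, each read by 1 probe set, the highest Pearson correlations of log2 ratios with Asns 1451095_at were those of Mthfd2 (0.96), Slc7a5 (0.88), Phgdh (0.87), Aldh18a1 (0.87) and Atf5 (0.86). After each genotype's mean was taken off, so that only differences among hearts of 1 genotype counted, they were Aldh18a1 (0.85), Atf5 (0.84), Mthfd2 (0.83), Sdf2l1 (0.82) and Sec61b (0.81). For Mthfd2 they were then Aldh18a1 (0.87), Cyb5r1 (0.85), Atf5 (0.83), Asns (0.83) and Sdf2l1 (0.82). Taking means off leaves spreads unequal. The SD of Asns 1451095_at was 0.78 in AC5 and 0.25 to 0.39 in the other genotypes. AC5 hearts therefore weigh most in its correlations. Nupr1 correlated with Asns at 0.41 over the 24 hearts and Trib3 at 0.67, while Psph stood at 0.20. With genotype means taken off, Nupr1 stood at 0.51, Trib3 at 0.61, Psph at 0.40 and Phgdh 1426658_x_at at 0.62. For Phgdh 1426658_x_at the closest over the 24 hearts were Asns (0.87), Mthfd2 (0.87), Slc7a5 (0.83), Aldh18a1 (0.83) and Plcd1 (0.79). Once genotype means were taken off they were Plcd1 (0.81), 1700007L15Rik (0.80), Tmem241 (0.76), Syne4 (0.75) and Elk1 (0.74). The other Phgdh probe sets correlated with Asns 1451095_at at 0.85 to 0.95 over the 24 hearts, and their closest genes were not listed. For Atf4 1439258_at the closest over the 24 hearts were Igha (0.90), Barx2 (0.85), Hoxa13 (0.85), Kdf1 (0.84) and Msi1 (0.84), none of them a member. With genotype means taken off they were Igha (0.94), Apoc2 (0.89), Fgfbp1 (0.89), Rspo4 (0.89) and Barx2 (0.88). The other Atf4 probe sets did not follow 1439258_at, and their closest genes were not listed. In AC5 replicate 5 the log2 ratio was -0.06 on 1439258_at, against 1.05 on 1448135_at and 1.08 on 1438992_x_at. Asns 1451095_at correlated at 0.11 with 1439258_at and at 0.35 and 0.33 with the others. These values are descriptions without a p, since the points share arrays and the AC5 hearts chose the set.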

How the data were processed

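RNA of 24 hearts, 6 per genotype, was measured on Affymetrix arrays. The deposited values are ratios on a linear scale, and RMA is named in the submitters' processing notes, without a version. No source used here states that scale or the division by a control level, both of which follow from the values alone. Log2 was taken first, and the array medians of log2 lay between -0.05 and 0.09. Of 45101 probe sets, 64 controls were left out. The 24 arrays entered a single limma fit (version 3.58.1, R 4.3.3) in which each genotype had its own mean, and Benjamini-Hochberg adjustment ran over 45037 probe sets. The fit was run on simulated data with independent values and a spread shared by all genotypes. That run could not check unequal spreads or sets scaled apart. No filter on brightness was possible, and the number of arrays limits the precision (median SE 0.0992). The p-values measure the spread between the hearts deposited.

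The members, gene lists, motifs and alternatives were chosen with earlier results of these data known. Lists use 1 probe set per gene (suffix _at before _a_at, _s_at and _x_at, then the lowest number). Genes were named by rule: all members, Adcy5, the called non-member with the largest rise and fall of each list and comparison, for AC5 the largest and smallest difference, and the 5 genes most like Asns, Phgdh, Mthfd2 and Atf4. Some of these are not printed. Other called genes of the lists were named after their values were seen. Replicate numbers were not taken to pair the hearts. Plots used Python 3.11.15 and matplotlib 3.10.9.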

Additional observations from a re-analysis of the deposited data

Results flagged for a closer look

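Within a genotype, 10 of the 96 groups of 6 hearts checked for the members held a heart set apart from the other 5 by more than the 95% limit of Dixon's test, and chance gives about 1 in 20. In AC5, replicate 4 was such a low heart for Asns, with ratios of 2.69 on 1451095_at and 3.87 on 1433966_x_at, and for Phgdh, with 1.91 on 1437621_x_at and 1.51 on 1454714_x_at. AC5 replicate 5 was high for Trib3 1456225_x_at, at 2.65. In ARG, replicate 6 was high for Atf4, at 1.62 on 1448135_at and 2.17 on 1438992_x_at, and replicate 1 was low for Psph, at 0.801. In NTG, replicate 6 was low for Asns 1451095_at, at 0.703, and replicate 4 was low for Nupr1 1419665_a_at, at 0.628.

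ARG hearts differed from GLY hearts for Nupr1, by 0.87 on 1419665_a_at and 0.82 on 1419666_x_at, in the test of ARG against GLY itself. The call on 1419665_a_at was lost under quantile normalization and within replicates 4 to 6. No number of lines or founders is named, so receptor form and transgenic line cannot be told apart.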

How the results depend on the processing

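In ARG against NTG the 15 member calls became 10 under quantile normalization, 8 within replicates 1 to 3, 6 within replicates 4 to 6 and 6 without the suffixes _s_at and _x_at, and leaving out single hearts gave 13 to 15. Of the 15, 5 held under every alternative run, in Asns, Mthfd2, Aldh18a1 and Nupr1. The 4355 calls over all probe sets became 2400 under quantile normalization, 1302 within replicates 1 to 3 and 2517 within replicates 4 to 6. In GLY against NTG the 2 member calls became 1 with array medians centred, with array weights, with a trended and robust fit, without the 3 arrays of low weight (GLY replicates 1 and 3 and ARG replicate 1) or without those suffixes. They became 5 with only the 2 groups fitted, 0 within replicates 4 to 6, and 0 to 2 without single hearts (2 without NTG replicate 4 or GLY replicate 6, 0 without NTG replicate 3 or 6 or GLY replicate 1 or 5, and 1 without each of the others). The 2286 calls over all became 633 (quantile), 1247 (only 2 groups), 1475 (trended), 72 (replicates 4 to 6), 1312 (without the 3 arrays) and 1337 to 3961 without single hearts (1355 without NTG replicate 3, 1337 without GLY replicate 3 and 3961 without GLY replicate 6). In ARG against GLY the 2 member calls became 1 (quantile, replicates 4 to 6, or suffixes left out), 4 (array weights, or without the 3 arrays) and 2 to 7 without single hearts (7 without GLY replicate 6, 4 without GLY replicate 3 or ARG replicate 1, 3 without ARG replicate 3). The 678 calls over all became 58 (quantile), 95 (only 2 groups), 182 and 192 (replicates 1 to 3 and 4 to 6) and 382 to 1781 without single hearts (382, 422, 444 and 400 without GLY replicate 1, GLY replicate 5, ARG replicate 2 and ARG replicate 4, 1041 without ARG replicate 1 and 1781 without GLY replicate 6). The sets and the low-weight arrays were known from earlier results of these data. Fewer hearts or probe sets enter some settings, and the cause of the other differences was not tested. No called member changed sign.

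Labels share replicate numbers. With the number as a replicate block, 14, 2 and 3 member probe sets and 4551, 2574 and 735 of all were called in ARG against NTG, GLY against NTG and ARG against GLY. The deviations of same-numbered hearts correlated at -0.289 to 0.492 over 36 pairs, 16 of them above 0.1. For GLY with ARG they correlated at 0.0525 to 0.492, 5 of 6 above 0.1, and 3 hearts matched their own number best, whereas for NTG with ARG 0 of 6 were above 0.1. AC5 with ARG also had 5 of 6 above 0.1, and 1 heart matched its own number best. No comparison had all 6 above 0.1, so the numbers were not taken to pair the hearts. That rule cannot exclude a pairing. The block gained the call of Trib3 1456225_x_at in ARG against GLY, lost that of Phgdh 1426658_x_at in ARG against NTG and changed no other member call.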
